A study of Mus musculus with 8 samples.

Results

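The epidermal growth factor (EGF) family was followed in the colon of bone marrow chimeric mice through 10 genes: the ligands Egf, Areg, Ereg, Hbegf, Tgfa, Btc and Nrg1, the receptors Egfr and Erbb2, and Lrig3, a membrane protein of the family of receptor regulators. They were chosen by name, with earlier results of these data known. All 10 were found among the 26008 genes of the table, and all 10 averaged 10 normalized counts or more, as did 19127 genes in all. The 8 libraries came from colonic biopsies of 4 penk-/- and 4 penk+/+ chimeras, 1 library per mouse. All recipients were male C57BL/6JRj mice, wild type for Penk and lethally irradiated at 7 weeks of age, and received bone marrow from male donors of 9 to 11 weeks, either penk-/- (B6.129-Penk-rstm1Pig/J strain, lacking proenkephalin, the precursor of the enkephalin opioid peptides) or wild type. They were examined 18 to 21 weeks after the graft. The deletion was therefore carried by cells derived from the graft, while the epithelium, muscle and neurons of the biopsies kept Penk in both groups. In 7 libraries the values came back to whole reads and gave 33.1 to 50.7 M reads per library. For penk-/- replicate 1 the step between values was so close to 1 that it was not accepted as the worth of 1 read, so this library did not enter the tests on reads (edgeR, DESeq2 and voom). Penk itself, which was not deleted in most cells of the biopsy, was at 453, 512, 616 and 531 normalized counts in the penk-/- chimeras and at 473, 496, 560.1 and 636 in the penk+/+ chimeras. The groups overlapped (log2 fold change -0.03, SE 0.12, adjusted p = 0.957 by limma), so that the whole-tissue level of Penk was no check of the labels.

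Ligands of the EGF family are made as membrane proteins and are released by proteases. They bind receptor tyrosine kinases, the ErbB receptors, which act in pairs: Egfr binds most of the ligands, Erbb3 and Erbb4 bind the neuregulins, and Erbb2 binds none and serves as the partner of the others. In the gut the pathway is known for sustaining the growth, survival and repair of the epithelium, with ligands coming from epithelial cells, fibroblasts and immune cells. Egf is also a product of exocrine glands and of the male accessory glands, and Pbsn is the gene of probasin, which the prostate epithelium secretes under the control of androgens.

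The part of each ligand that binds the receptor is the EGF-like domain, a fold held by cysteines. Its coding sequence is shown for Egf, the member with the widest fold range, and for Areg and Nrg1, the ligands with the largest differences relative to their error, from the first to the last cysteine, read along the GENCODE M39 transcripts on GRCm39. Capitals mark the cysteine codons.
Egf: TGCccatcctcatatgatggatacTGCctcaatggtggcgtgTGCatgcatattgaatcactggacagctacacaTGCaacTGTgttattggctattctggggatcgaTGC
Areg: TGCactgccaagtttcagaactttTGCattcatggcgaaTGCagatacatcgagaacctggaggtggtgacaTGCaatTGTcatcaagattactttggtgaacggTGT
Nrg1: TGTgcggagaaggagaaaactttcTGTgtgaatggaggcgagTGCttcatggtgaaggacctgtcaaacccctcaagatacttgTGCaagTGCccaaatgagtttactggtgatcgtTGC
The domain spanned 37 residues in Egf, 36 in Areg and 40 in Nrg1. Over the longer domain of each pair, 40.5% of the residues were identical between Egf and Areg, 35% between Egf and Nrg1 and 32.5% between Areg and Nrg1. Among the 7 member ligands the closest pair was Hbegf and Btc, with 55.6% identity. Areg, Ereg and Btc lay near each other on chromosome 5 (GRCm39): Ereg at 91222157 to 91241505 and Areg at 91287451 to 91296291, both on the plus strand, and Btc at 91505120 to 91550883 on the minus strand.

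The 250 bases upstream of the annotated start of Egf (chr3:129549094-129549343, minus strand, GRCm39) and of Pbsn (chrX:76897230-76897479, minus strand) are shown because both genes moved together over the libraries, as described further on. Capitals mark the hexamer TGTTCT, the core bound by the androgen receptor, which was searched on both strands (AGAACA on the other).
Egf: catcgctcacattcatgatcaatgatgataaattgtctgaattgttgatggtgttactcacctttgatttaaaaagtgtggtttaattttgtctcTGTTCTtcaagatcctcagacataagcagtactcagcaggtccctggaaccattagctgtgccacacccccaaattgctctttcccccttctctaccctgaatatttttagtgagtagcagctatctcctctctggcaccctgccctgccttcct
Pbsn: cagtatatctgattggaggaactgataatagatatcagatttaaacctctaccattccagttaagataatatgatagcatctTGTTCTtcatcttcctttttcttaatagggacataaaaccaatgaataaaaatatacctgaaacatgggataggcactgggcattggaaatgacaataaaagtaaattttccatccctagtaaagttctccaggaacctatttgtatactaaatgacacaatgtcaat
Each window held 1 hexamer, with its first base 155 bases upstream of the start in Egf and 168 bases upstream in Pbsn. The hexamer was found in 14.3% of the 21770 promoter windows of protein-coding genes of the same length, and none of the windows of the other members held it. Of the accessory gland genes described further on as high in the same libraries as Pbsn, Tgm4 and Azgp1 held none and Msmb held 2.

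Between the genotypes, Areg was higher in every penk-/- library than in any penk+/+ library, Erbb2 was lower in every one, and Nrg1 and Ereg had higher means in the penk-/- chimeras with groups that overlapped, while Egf, Hbegf, Tgfa, Btc, Egfr and Lrig3 overlapped between the groups at an unadjusted p above 0.05, which Btc (without penk+/+ replicate 4) and Lrig3 (without penk-/- replicate 2) fell below when 1 library was left out. None of the 10 members passed the threshold of an adjusted p of 0.05 in the limma test over all genes, and neither did any of the 19127 genes tested (0%). At an unadjusted p below 0.05, limma called 9.63% of all genes, 4.3% with a higher and 5.33% with a lower mean in the penk-/- chimeras, and 4 of the 10 members, 3 higher (Areg, Ereg and Nrg1) and 1 lower (Erbb2). The groups did not overlap in 5.63% of all genes, 2.89% higher and 2.74% lower in the penk-/- chimeras, and in 2 of the 10 members, 1 in each direction. The median log2 fold change was -0.0084 over the members and 0.0051 over all genes tested. The p-values measure the spread between these mice, with 4 libraries in each group. In a biopsy, fewer cells of a type and less RNA per cell cannot be told apart.

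**Figure D1:**
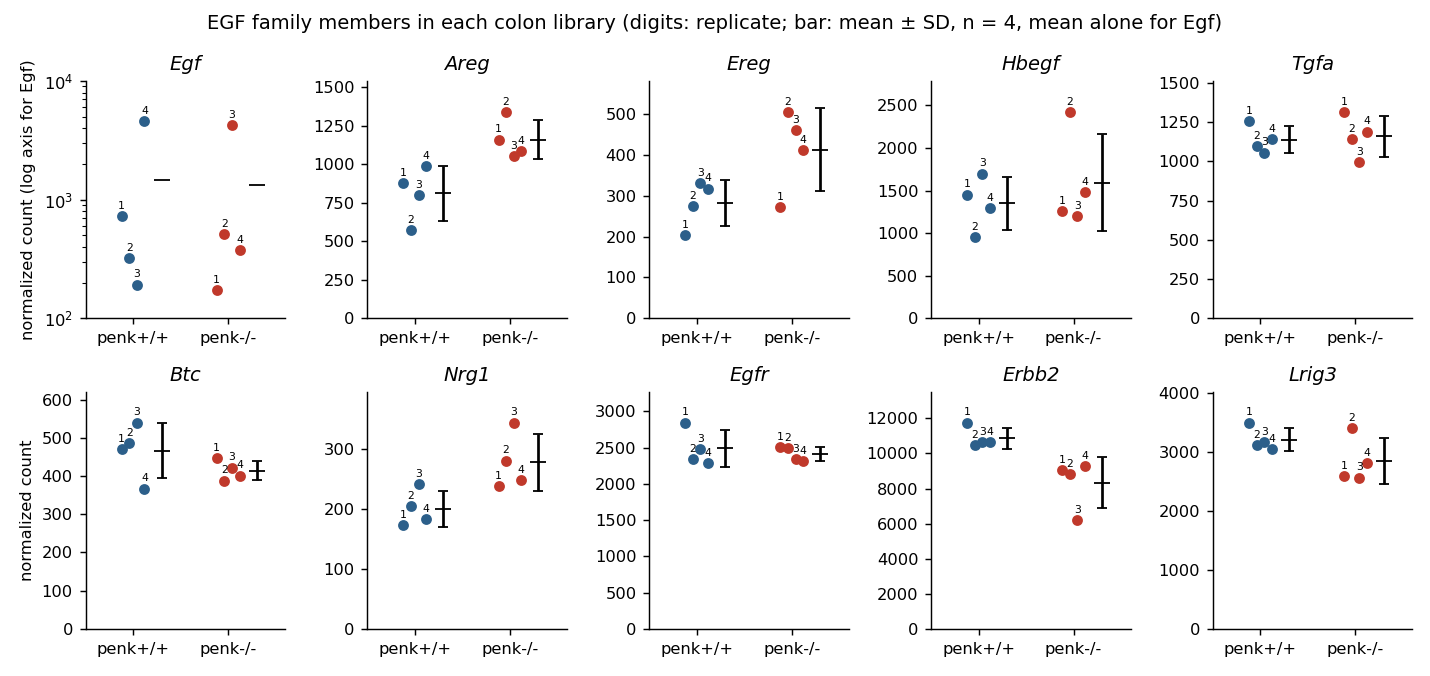
Normalized count (y axis, linear from 0, log axis for Egf alone) of each of the 10 members in the 4 penk+/+ (blue) and 4 penk-/- (red) libraries, with the replicate number at each point and the mean ± SD of the group as a black bar (mean alone for Egf). Areg lay above and Erbb2 below the penk+/+ libraries in all 4 penk-/- libraries, and Egf was highest in penk-/- replicate 3 and penk+/+ replicate 4.

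Areg codes for amphiregulin, a ligand of Egfr linked to epithelial repair. Its normalized counts were 1160.2, 1341, 1052 and 1088 in replicates 1 to 4 of the penk-/- chimeras and 877, 573, 802 and 990.4 in those of the penk+/+ chimeras. The lowest penk-/- library was above the highest penk+/+ library, and the lowest value of all was in penk+/+ replicate 2. The means were 1160.2 ± 128 (SD, n = 4) and 811 ± 176 (SD, n = 4), a log2 fold change of 0.54 (SE 0.16, 95% interval 0.19 to 0.89, adjusted p = 0.366 by limma). The exact permutation test gave p = 0.0286 (two-sided), which is the smallest p that 4 libraries against 4 can give. Without any single library the log2 fold change of Areg remained between 0.38 and 0.64. No gene overlaps Areg on the opposite strand in the annotation.

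Nrg1 codes for neuregulin 1, a ligand of Erbb3 and Erbb4 made mostly by stromal cells in the gut. Its levels were low, at 238, 280.5, 344 and 247 normalized counts in the penk-/- chimeras and 173, 204, 241 and 183 in the penk+/+ chimeras. The groups overlapped only through penk-/- replicate 1 and penk+/+ replicate 3. The log2 fold change was 0.46 (SE 0.15, 95% interval 0.12 to 0.80, adjusted p = 0.408 by limma). The exact permutation test gave p = 0.0571 (two-sided). Nrg1 lay at chromosome 8, 32303906 to 33374825, minus strand (GRCm39).

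Ereg, the gene of epiregulin, a ligand of Egfr and Erbb4, was at 273, 506, 462 and 413 normalized counts in the penk-/- chimeras and at 204, 276, 332 and 318 in the penk+/+ chimeras. Replicate 1 of the penk-/- chimeras lay within the range of the penk+/+ libraries and the other 3 lay above it. The log2 fold change was 0.53 (SE 0.21, 95% interval 0.05 to 1.01, adjusted p = 0.471 by limma), and the exact permutation test gave p = 0.114 (two-sided). Its unadjusted limma p of 0.0325 rose above 0.05, up to 0.0953, without 5 of the 8 libraries taken out in turn. These were replicates 2, 3 and 4 of the penk-/- and 1 and 2 of the penk+/+ chimeras. Without each of these 5 the log2 fold change was 0.39 to 0.53. Without penk-/- replicate 1 the log2 fold change was 0.72. DESeq2 on the recovered reads of the 7 other libraries, where 360 genes passed, called Ereg (adjusted p = 0.0112), whereas edgeR (5 genes passed, adjusted p = 0.261) and voom (6 genes passed, adjusted p = 0.255) on the same reads did not. Ereg overlaps Gm19610 on the opposite strand, whose mean was 16.2% of that of Ereg and whose log2 fold change was 0.22.

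For Hbegf, heparin-binding EGF-like growth factor, the penk-/- libraries held 1262, 2422, 1196 and 1480.5 normalized counts and the penk+/+ libraries 1452, 951, 1699 and 1291. Replicate 2 of the penk-/- chimeras stood above all others, and without it the log2 fold change of 0.21 (SE 0.24, adjusted p = 0.825 by limma) was -0.013. Tgfa, the gene of transforming growth factor alpha, an epithelial ligand of Egfr, had a narrow range, from 993 in replicate 3 to 1315 in penk-/- replicate 1 and from 1056 to 1256 in the penk+/+ chimeras. Its log2 fold change of 0.02 had a 95% interval of -0.19 to 0.23 (adjusted p = 0.962 by limma). Btc, the gene of betacellulin, a ligand of Egfr and Erbb4, was at 446, 388, 422 and 401 in the penk-/- chimeras and at 470.4, 487, 539.7 and 367 in the penk+/+ chimeras, of which replicate 4 was below all other libraries. The log2 fold change of Btc was -0.16 (SE 0.12, adjusted p = 0.718 by limma) and -0.27 without that library (unadjusted limma p of 0.0184, against 0.222 with it), but -0.082 without penk+/+ replicate 3 (unadjusted limma p of 0.51). Hbegf, Tgfa and Btc thus overlapped between the groups. Tgfa lay at chromosome 6, 86172041 to 86252728, plus strand.

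Among the receptors, Erbb2 was at 9057, 8810.3, 6200.0 and 9284 normalized counts in the penk-/- chimeras and at 11756, 10458, 10637 and 10632 in the penk+/+ chimeras. All penk-/- libraries were below all penk+/+ libraries, and penk-/- replicate 3 was far below the rest of its group. The means were 8338 ± 1438 and 10871 ± 596 (SD, n = 4 in each group), a log2 fold change of -0.40 (SE 0.12, 95% interval -0.67 to -0.12, adjusted p = 0.388 by limma). The exact permutation test gave p = 0.0286 (two-sided), again the smallest possible. Without penk-/- replicate 3 the log2 fold change was -0.26 with an unadjusted limma p of 0.0023. Erbb2 lay at chromosome 11, 98303203 to 98328542, plus strand (GRCm39). It overlaps Mien1 on the opposite strand, whose mean was 2.11% of that of Erbb2.

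Egfr, the receptor of most of the member ligands, was at 2507, 2491, 2345 and 2310.3 normalized counts in the penk-/- chimeras and at 2844, 2342, 2482 and 2286 in the penk+/+ chimeras. The groups overlapped, and penk+/+ replicate 1 was the highest. The log2 fold change of -0.04 had a 95% interval of -0.21 to 0.13 (SE 0.08, adjusted p = 0.909 by limma). Egfr lay at chromosome 11, 16702198 to 16868158, plus strand. It overlaps Eldr on the opposite strand, whose mean was 14.7% of that of Egfr and whose log2 fold change was -0.05, and how the counting treated strand is not given in the sources used here. Lrig3 was at 2586, 3405, 2563 and 2812 in the penk-/- chimeras and at 3493, 3117, 3169 and 3039.7 in the penk+/+ chimeras. Of the penk-/- libraries, 3 were below all penk+/+ libraries and replicate 2 was within their range. The log2 fold change of Lrig3 was -0.18 (SE 0.09, 95% interval -0.39 to 0.03, adjusted p = 0.589 by limma), and -0.27 without that replicate 2 (unadjusted limma p of 0.00486, against 0.0865 with it). Lrig3 lay at chromosome 10, 125802034 to 125853160, plus strand.

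Egf varied more than any other member and did so within both genotypes. Its normalized counts were 174, 513, 4233 and 376 in replicates 1 to 4 of the penk-/- chimeras and 724, 321, 192 and 4576 in those of the penk+/+ chimeras, a 26.3-fold range. In each group 1 library stood far above the other 3, penk-/- replicate 3 and penk+/+ replicate 4. The genotype accounted for 0.148% of the variance of log2 Egf, and the log2 fold change of -0.13 had an SE of 1.12 (95% interval -2.65 to 2.38, adjusted p = 0.984 by limma), so that a difference of several fold in either direction was not detectable. The direction itself depended on the libraries kept: the log2 fold change was -1.06 without penk-/- replicate 3 and 0.79 without penk+/+ replicate 4. Egf lay at chromosome 3, 129470410 to 129549093, minus strand (GRCm39).

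The range of Egf followed that of Pbsn. Pbsn was at 0, 7638, 105658 and 4803 normalized counts in the penk-/- chimeras and at 13425, 2398, 0 and 111024 in the penk+/+ chimeras. From the lowest to the highest Pbsn, Egf increased at every step between libraries that differed in Pbsn. The libraries fell into separate clusters of Pbsn, 6 at 13425 or less and 2 that were at least 7.87-fold above them, so that no correlation over all 8 is given. Over the 6 libraries of the lower cluster, Pearson's r between Egf and Pbsn was 0.92 on log2(value + 1) and 0.996 on normalized counts. Both had an exact permutation p of 0.00278 and an adjusted p of 0.0278 over the 10 members, and Spearman's rho of 0.986 had an exact permutation p of 0.00556 (adjusted 0.0556). Without the 2 of these 6 libraries farthest from the median of log2(Pbsn + 1), those at 0, r on this scale was 0.97 over 4 libraries. Among 19126 genes tested, 8 others had an r with Pbsn of at least that of Egf over the 6 libraries on normalized counts.

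The line through these 6 libraries gave 40.1 normalized counts of Egf for each 1000 of Pbsn, above an intercept of 194.5, and accounted for 99.2% of the variance of Egf among them. Extended to the 2 libraries that the line had not used, it gave 4430.0 for penk-/- replicate 3 and 4645 for penk+/+ replicate 4. The measured Egf was 95.6% and 98.5% of these values. In the 2 libraries without Pbsn, Egf was still present, at 174 and 192 normalized counts (mean 183). Set against that mean, the share of Egf above it was 95.7% in penk-/- replicate 3 and 96% in penk+/+ replicate 4, 74.7% in penk+/+ replicate 1, 64.3% in penk-/- replicate 2, 51.3% in penk-/- replicate 4 and 43.1% in penk+/+ replicate 2. Egf less the slope times Pbsn, an alternative chosen after seeing the data, was 140.3 ± 96.1 in the penk-/- and 182 ± 41.5 in the penk+/+ chimeras (SD, n = 4, exact permutation p = 0.571, two-sided). The first mean rested on penk-/- replicate 3, where the slope was extended far beyond the 6 libraries and gave -2.32, below any possible level. Without it the mean was 188 ± 17.0 (SD, n = 3) and the difference turned to 5.53 (exact permutation p = 0.886, two-sided). Only this library was left out. The slope was extended even further in penk+/+ replicate 4, which gave 126, below the 186 to 225 of the other penk+/+ libraries, and was kept. The sign of the difference is therefore not read.

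**Figure D2:**
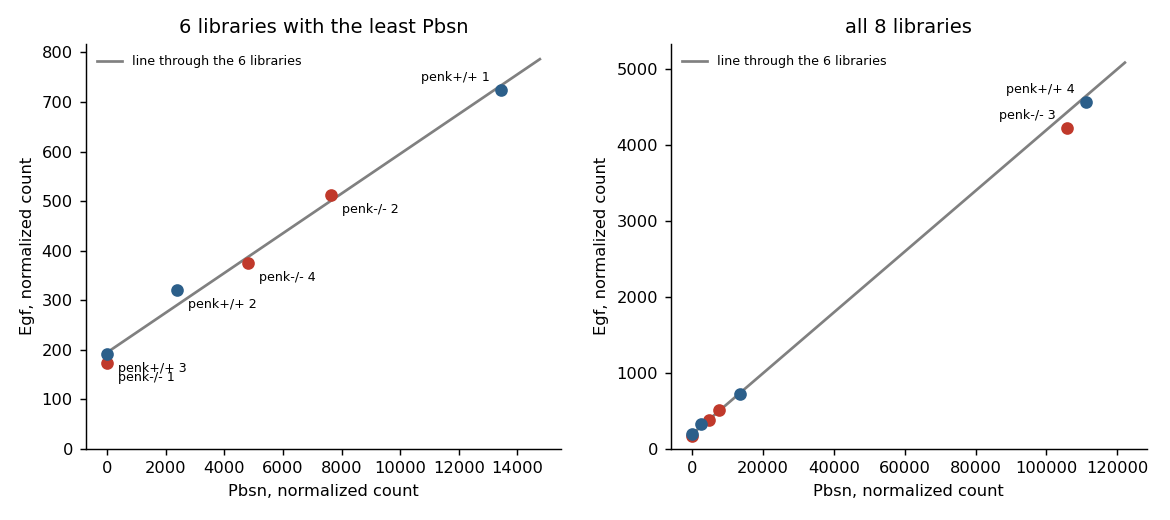
Normalized count of Egf (y axis) against that of Pbsn (x axis), in the 6 libraries with the least Pbsn (left) and in all 8 (right), penk-/- in red and penk+/+ in blue, with the line fitted to the 6 libraries. The 2 libraries at 105658 and 111024 of Pbsn lay at 95.6% and 98.5% of the value of that line, and both genotypes lay along it.

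Of the other accessory gland genes reported, Tgm4, Azgp1 and Msmb were high in the same 2 libraries and Spink1 was not. Of the 11 genes listed for these glands 5 were matched by name. The others, Sbp, Semg1, Svs4, Svs5, Svs6 and Pate4, are named in the annotation but were not found among the genes of the table. The summed normalized counts of the matched genes, of which Pbsn was the most abundant, were 11717, 26347, 221003 and 20067 in the penk-/- and 43419, 15604, 10989 and 232949 in the penk+/+ chimeras. Tgm4, a transglutaminase of the prostate, went from 93.9 and 54.2 in the 2 libraries without Pbsn to 104034 and 106655 in the 2 with the most. Azgp1, a secreted glycoprotein, was at 77.8 and 39.9 in the former and at 3768 and 3921 in the latter. Spink1, which is also made by the gut epithelium, ranged from 7372, in penk-/- replicate 3, to 15461, in penk+/+ replicate 1, and accounted for most of the sum in the libraries without Pbsn, where Msmb, a protein of the seminal fluid, was also at 0. Of the genes of the bladder lining, Upk1b was at 1193 and 1286 in the 2 libraries with the most Pbsn and at 243 or less in the others. Upk1a, the most abundant of them, did not follow Pbsn. It was at 375 in penk-/- replicate 3, at 508 in penk+/+ replicate 4 and at 363 to 496 in the others. Upk2 was at most 6.00 in all, and Upk3a was not found among the genes of the table. The part of glandular RNA in the level of Egf was not tested beyond these values.

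None of the remaining members passed the adjusted permutation test of a relation with Pbsn. Over the 6 libraries of the lower cluster, Pearson's r with Pbsn on log2(value + 1) ranged from -0.52 for Btc to 0.54 for Lrig3, with adjusted permutation p of at least 0.87 for each of the 9 genes. On normalized counts r was higher for Egfr (0.69) and Lrig3 (0.71), with an adjusted permutation p of 0.491 for both. Pbsn itself hardly differed in mean between the genotypes (log2 fold change 0.03, SE 4.10, unadjusted limma p of 0.994). As a covariate it could therefore hardly move a genotype difference, and the values with it do not show independence from Pbsn. With log2(Pbsn + 1) as a covariate the log2 fold change was 0.54 for Areg, 0.53 for Ereg, 0.46 for Nrg1 and -0.40 for Erbb2. Without the 2 libraries with the most Pbsn, it was 0.69 for Areg, 0.53 for Ereg, 0.32 for Nrg1 and -0.27 for Erbb2. The unadjusted limma p was then 0.071 for Nrg1 and 0.0694 for Ereg, both above 0.05, and 0.0044 for Erbb2. Btc moved from -0.16 to -0.28, with an unadjusted limma p of 0.0265. For Egf itself the log2 fold change was -0.14 with the covariate and -0.14 without these 2 libraries.

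The genes with the pattern most like that of Egf, by Pearson's r of log2(value + 1) over the 8 libraries among the genes tested, were Col4a6 (r = 0.996), a chain of basement membrane collagen, Mme (r = 0.996), the peptidase neprilysin, which cleaves enkephalins among other peptides, the non-coding Gm34225 (r = 0.996), Gata2 (r = 0.994), a transcription factor, and Plekhs1 (r = 0.994). Here r serves only as a measure of likeness, since all 5 genes had the same 2 high libraries as Egf. Mme was at 111, 348, 2909 and 312 normalized counts in the penk-/- and at 505, 265, 175 and 3201 in the penk+/+ chimeras. As for Egf, its highest values were in penk-/- replicate 3 and penk+/+ replicate 4, and the log2 fold change between the genotypes was -0.27 (SE 1.08, adjusted p = 0.961 by limma).

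Levels of different genes were compared as normalized counts per kb of exon, with the exons of all transcripts merged, so that a gene with many long isoforms is understated. The receptors led: the median over the 8 libraries was 3225 for Erbb3, the partner of Erbb2 that binds neuregulins, and 1821 for Erbb2, while Egfr was at 209. Erbb4 was nearly absent, at 0 normalized counts in 2 libraries and at most 8.7. Areg was the most abundant ligand, with a median of 836 per kb (range 469 to 1097), and among the other ligands only Hbegf reached into that range (186 to 474). It was followed by Hbegf at 268, Tgfa at 167, Btc at 95.5, Ereg at 73.0, Egf at 36.3 and Nrg1 at 14.4, and Lrig3 was at 299. Neighbours in this order whose ranges overlapped were Erbb3 and Erbb2, Lrig3 and Hbegf, Hbegf and Egfr, Btc and Ereg, Ereg and Egf, and Egf and Nrg1. Egf spanned from 14.2 per kb, within the range of Nrg1, to 374, above the range of Tgfa. The ligands outside the 10 members had lower medians still, at 6.53 for Nrg2, 5.24 for Nrg4, 1.40 for Epgn and 0.847 for Nrg3. Ranges also overlapped between Nrg1 and Nrg2, Nrg2 and Nrg4, Epgn and Nrg3, and Nrg3 and Erbb4.

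**Figure D3:**
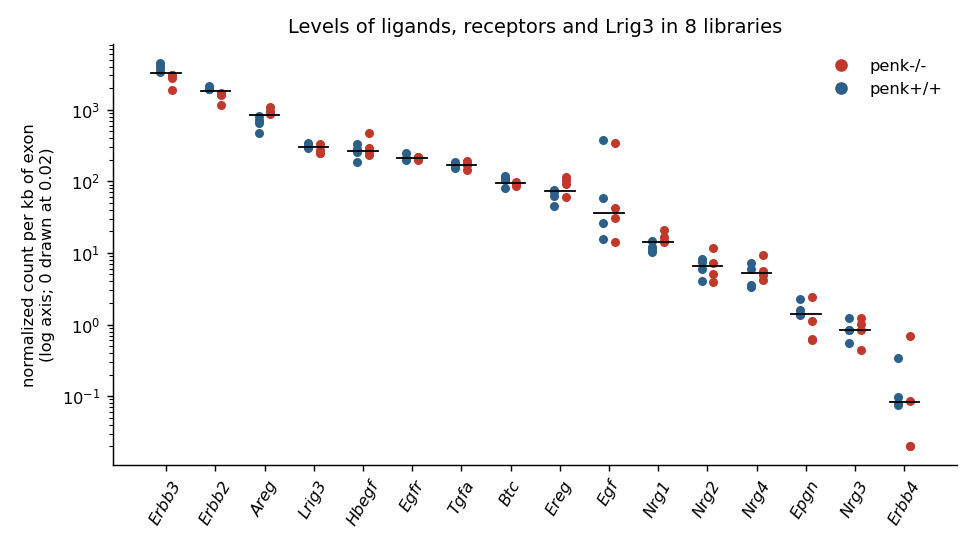
Normalized count per kb of exon (y axis, log axis, 0 drawn at 0.02) of the ligands, receptors and Lrig3 (x axis, by decreasing median), with 1 point per library, penk-/- in red and penk+/+ in blue, and the median over the 8 libraries as a line. The median of Areg stood above those of the other ligands, and Egf spanned 14.2 to 374.

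The biopsies held RNA of the epithelium and of the muscle in all libraries: Krt8, a keratin of the gut epithelium, was at 117643 to 171586 and Myh11, the smooth muscle myosin, at 58199 to 97282 normalized counts. The levels of these markers differed between mice. An epithelium score, the mean over 6 genes of log2(value + 1) less the mean of each gene over the libraries, went from -0.36 in penk-/- replicate 3 to 0.25 in penk+/+ replicate 1. It was -0.06 ± 0.23 in the penk-/- and 0.06 ± 0.15 in the penk+/+ chimeras (SD, n = 4, exact permutation p = 0.429, two-sided). The 6 genes did not move as 1: Cdx2, a transcription factor of the gut epithelium, had a log2 fold change of 0.28 (unadjusted limma p of 0.169), against -0.15 for Krt8 to -0.24 for Vil1 (unadjusted limma p of 0.0562 for Vil1) for the other 5, and the median over the 6 was -0.19. The smooth muscle score was 0.04 ± 0.33 and -0.04 ± 0.25 (exact permutation p = 0.686, two-sided). The genotypes also overlapped for the scores of fibroblasts (difference 0.21, exact permutation p = 0.286), immune cells (difference 0.18, exact permutation p = 0.543) and enteric neurons and glia (difference -0.02, exact permutation p = 0.971), each penk-/- less penk+/+. Of the immune genes, Csf1r, a receptor of macrophages, was the most abundant at 1162 to 2460 normalized counts, Ptprc, the pan-leukocyte CD45 gene, was at 510.3 to 1297 and Cd3e, a gene of T lymphocytes, at 6.06 to 32.7.

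Tgfa was the member that followed the epithelium most closely. Over the 8 libraries Pearson's r of Tgfa with the epithelium score was 0.90 (permutation p = 0.00258, adjusted 0.0516 over the 20 pairs of a member and a score) and Spearman's rho was 0.93 (permutation p = 0.00223, adjusted 0.0446). Without the 2 libraries farthest from the median score, r was 0.82. With the smooth muscle score, r of Tgfa was -0.73 (rho -0.74, adjusted permutation p = 0.139 and 0.153). Within each genotype the order of Tgfa, at 1315, 1140.2, 993 and 1189 in the penk-/- and 1256, 1095, 1056 and 1143 in the penk+/+ chimeras, was also that of the score.

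For Nrg1, r with the epithelium score was -0.84 (rho -0.79, permutation p = 0.00955 and 0.0279, adjusted 0.0955 and 0.14), and for Ereg -0.76 (rho -0.79, permutation p = 0.0267 and 0.0279, adjusted 0.139 and 0.14). Without the 2 farthest libraries r was -0.43 for Nrg1 and -0.54 for Ereg, so that both relations rested in part on those libraries. With the smooth muscle score, r was 0.74 for Ereg (rho 0.88, adjusted permutation p = 0.139 and 0.0724) and 0.61 for Nrg1 (rho 0.74, adjusted permutation p = 0.307 and 0.153), and without the 2 farthest libraries 0.64 and 0.78. None of these relations of Ereg and Nrg1 passed an adjusted p of 0.05. Erbb2 had an r of 0.78 with the epithelium score (rho 0.48, adjusted permutation p = 0.139 and 0.608) that rested on the 2 farthest libraries, penk-/- replicate 3 and penk+/+ replicate 1, the lowest and the highest in both measures: without them r was -0.15. Areg did not follow either score (r = -0.07 and 0.11).

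With the epithelium score as a covariate, the log2 fold change was 0.59 for Areg, 0.33 for Nrg1, 0.37 for Ereg and -0.29 for Erbb2. The unadjusted limma p of Ereg was then 0.0509. With the smooth muscle score as a covariate, the log2 fold change was 0.54 for Areg, 0.42 for Nrg1, 0.45 for Ereg and -0.38 for Erbb2, with an unadjusted limma p of 0.00899 for Ereg and 0.0072 for Nrg1. The parts of the epithelium and of the muscle in these differences were not tested beyond the covariates.

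**Figure D4:**
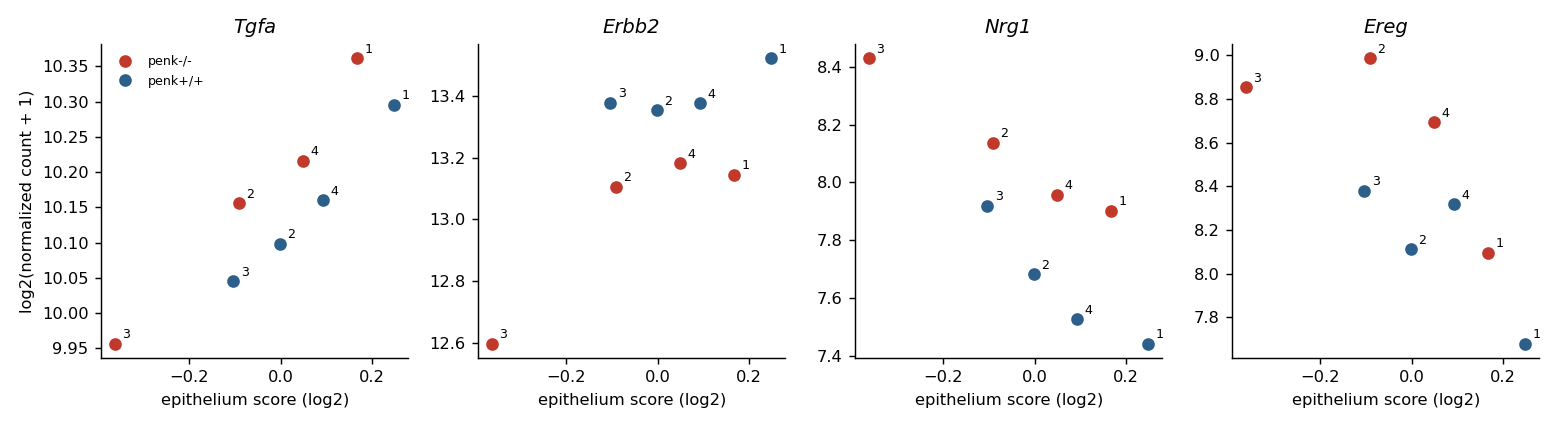
log2(normalized count + 1) of Tgfa, Erbb2, Nrg1 and Ereg (y axis) against the epithelium score (x axis, log2 units) in the 8 libraries, with the replicate number, penk-/- in red and penk+/+ in blue. Tgfa increased and Nrg1 decreased with the score, and in Erbb2 penk-/- replicate 3 lay alone at the lower left.

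The rest of the pathway was read through 6 lists by role, chosen with earlier results of these data known. They held 50 other genes, of which 47 were tested. At an unadjusted limma p below 0.05, 7 of them differed, 3 with a higher mean (Rhbdf1, Errfi1 and Hras) and 4 with a lower mean in the penk-/- chimeras (Erbb3, Rhbdl2, Cblc and Dusp4), and 0 passed an adjusted p of 0.05. They made up 14.9% of the genes tested in these lists, beside 9.63% of all genes, and the median log2 fold change over the lists was 0.026 (0.0051 over all genes).

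Erbb3 showed the same separation as Erbb2, its usual partner. It was at 19096, 17387, 11933 and 19396 normalized counts in the penk-/- chimeras and at 28138, 24294, 25374 and 21279 in the penk+/+ chimeras. All penk-/- libraries were below all penk+/+ libraries, and penk-/- replicate 3 was again the lowest. The log2 fold change was -0.57 (SE 0.16, 95% interval -0.91 to -0.22, adjusted p = 0.351 by limma, exact permutation p = 0.0286, two-sided), and -0.41 without penk-/- replicate 3. DESeq2 on the reads of the 7 other libraries than penk-/- replicate 1 called Erbb3 (adjusted p = 0.0196), and edgeR (adjusted p = 0.284) and voom (adjusted p = 0.269) on the same reads did not. Of the other ligands, Nrg2 was at 17 to 50.2 and Nrg4 at 48.0 to 134 normalized counts, with log2 fold changes of 0.05 and 0.26 (SE 0.36 and 0.32), and 0 of the 3 tested had an unadjusted p below 0.05. Nrg2 and Nrg4 were highest in the 2 libraries with the most Pbsn, penk-/- replicate 3 (50.2 and 134) and penk+/+ replicate 4 (35.2 and 101). Nrg3 and Erbb4, both at low counts, were also highest in these 2 libraries.

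Among the 7 genes of ligand release, 1 was higher and 1 lower at an unadjusted limma p below 0.05 (28.6%, beside 9.63% of all genes). The median log2 fold change over these 7 was -0.02. Rhbdf1, the inactive rhomboid iRhom1 that brings the protease Adam17 to the cell surface, was at 1374, 1335, 1259.6 and 1541 in the penk-/- and at 1057, 1108, 995.5 and 1283 in the penk+/+ chimeras. Only penk-/- replicate 3 and penk+/+ replicate 4 overlapped (log2 fold change 0.31, SE 0.09, adjusted p = 0.386 by limma). Rhbdl2, an active rhomboid protease, had means of 6829 ± 1034 and 8330 ± 1041.3 (SD, n = 4, log2 fold change -0.29, SE 0.12, adjusted p = 0.479 by limma). For Rhbdl2 it was -0.19 with the epithelium score as a covariate (unadjusted limma p of 0.0278). Without the 2 libraries with the most Pbsn it was -0.25 (unadjusted limma p of 0.0707).

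Of the 14 inhibitors of the receptors, 1 was higher and 1 lower at an unadjusted limma p below 0.05 (14.3%, beside 9.63% of all genes). The median log2 fold change over these 14 was 0.08. Errfi1, which binds and blocks the kinase of Egfr and Erbb2, had means of 4949 ± 466 in the penk-/- and 4085 ± 604 in the penk+/+ chimeras (SD, n = 4, log2 fold change 0.28, SE 0.11, adjusted p = 0.466 by limma). Cblc, an epithelial ubiquitin ligase of the family that removes activated receptors, had means of 2139 ± 296 and 2595 ± 244 (log2 fold change -0.28, SE 0.11, adjusted p = 0.458 by limma). For Cblc it was -0.19 without penk-/- replicate 3 (unadjusted limma p of 0.0589), -0.18 with the epithelium score as a covariate (0.0126) and -0.17 without the 2 libraries with the most Pbsn (0.109). Of the 14 genes of the signal relay, 1 was higher at an unadjusted limma p below 0.05 (7.14%, beside 9.63% of all genes). This was Hras, a small GTPase of the Ras family, at 1143 ± 85.2 against 990.4 ± 74.8 (log2 fold change 0.21, SE 0.08, adjusted p = 0.456 by limma). Sos1, the exchange factor that loads Ras with GTP, had a log2 fold change of 0.16 (SE 0.09, adjusted p = 0.629).

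Of the 8 tested genes that respond to ERK, the kinase at the end of the pathway, 1 was lower at an unadjusted limma p below 0.05 (12.5%, beside 9.63% of all genes). The median log2 fold change over these 8 was 0.04. Dusp4, a phosphatase of ERK, was at 263, 308, 286 and 281 in the penk-/- and at 331, 328, 309 and 334 in the penk+/+ chimeras. The groups did not overlap, by less than 1 normalized count (log2 fold change -0.20, SE 0.09, adjusted p = 0.514 by limma). For Dusp6, another phosphatase of ERK, the groups overlapped and the unadjusted limma p was above 0.05. Its log2 fold change of 0.23 had a 95% interval of -0.01 to 0.46 (SE 0.11, adjusted p = 0.538 by limma). The immediate early gene Egr1 ranged from 650.3 to 4073 within the penk-/- chimeras alone (log2 fold change -0.31, SE 0.49, adjusted p = 0.883 by limma).

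**Figure D5:**
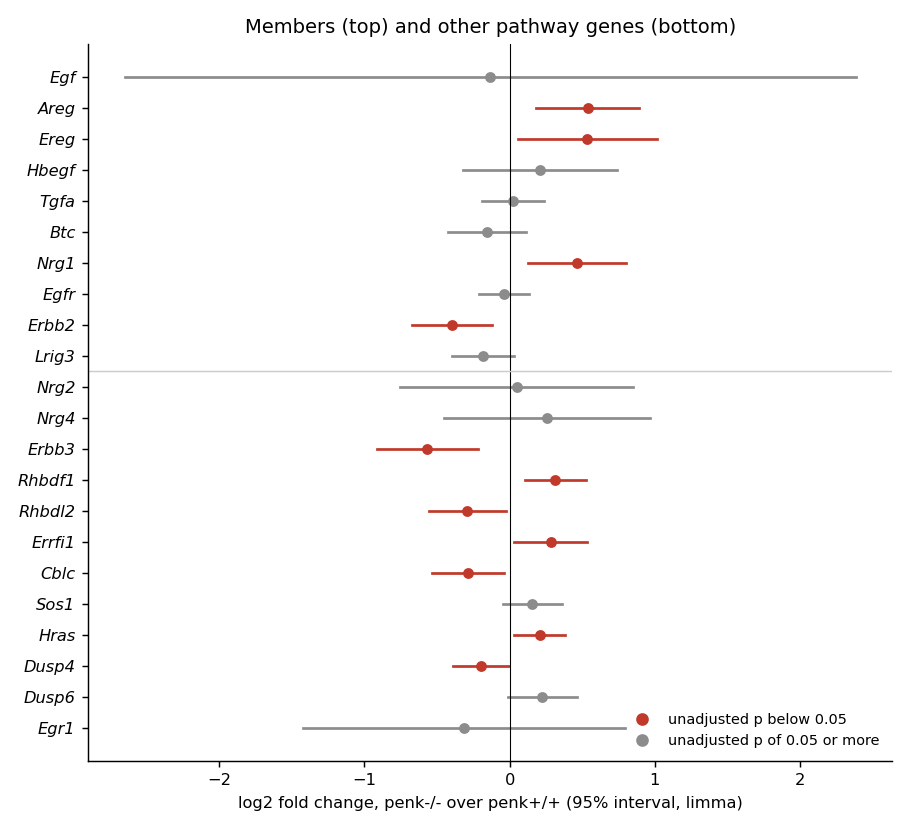
log2 fold change of penk-/- over penk+/+ chimeras (x axis, point) with its 95% interval by limma (line) for the 10 members (top) and the 12 named genes of the pathway lists (bottom), red where the unadjusted p was below 0.05 and grey otherwise. The interval of Egf, from -2.65 to 2.38, was the widest of all, and no gene passed an adjusted p of 0.05.

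Without any single library, the unadjusted limma p stayed below 0.05 for Areg, Nrg1, Erbb2, Erbb3 and Rhbdf1, at up to 0.0242, 0.0358, 0.0266, 0.0155 and 0.0269. It did not for Ereg, Rhbdl2, Errfi1, Cblc, Hras and Dusp4, which stayed below 0.05 in 3, 3, 4, 5, 3 and 2 of the 8 sets of 7 libraries.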

How the data were processed

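Colonic biopsies of 4 penk-/- and 4 penk+/+ chimeras were sequenced, 1 mouse per library. The authors prepared stranded poly-A libraries, checked reads with FastQC, ran STAR 2.7.8a on GRCm39 with the Ensembl annotation for alignment and quantification, and used DESeq2 1.30.0. The deposited values form a signal: normalized counts, 1 per gene and mouse, obtained by dividing read counts by a size factor per library. How the counting treated strand is not given in the sources used here. Names of 25776 of the 26008 identifiers, positions and sequences were taken from GENCODE M39 on GRCm39.

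Genotypes were compared with limma 3.58.1 (moderated test with trend, two-sided, no covariate) on log2(normalized count + 1) of the 19127 genes with a mean of at least 10, with Benjamini-Hochberg adjustment over all of them. Fold changes are on this scale, which understates those of low genes. Single genes were also tested by exact permutation over the 70 assignments of the libraries, and relations between measures over all pairings of libraries. In 7 libraries 100% of values were whole reads within 0.01 read (33.1 to 50.7 M per library). Those reads were tested with edgeR 4.0.16, voom and DESeq2 1.42.0 as alternatives, without penk-/- replicate 1, whose step lay too close to 1 to be accepted as 1 read. At this depth the spread between mice limits the precision. Between these 7 libraries, the chi-square of the reads was at least 11.2 per degree of freedom, and penk-/- replicate 1 differed from the closest library by a median of 0.159 on the log2 scale, so none were repeats. Alternatives changed the pseudocount, filter, trend, normalization, covariates, replicate block and the libraries kept. The limma script was tested on simulated data.

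All members were named. From each pathway list the text names every gene with an unadjusted p below 0.05 and the 2 with the largest change. It also names the 5 genes most like Egf and the 5 matched accessory gland genes. An accessory gland gene beyond the 11 listed is not reported here. Members and lists were chosen with earlier results of these data known.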

Additional observations from a re-analysis of the deposited data

Results flagged for a closer look

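Within a group of 4 libraries, a library was noted when its gap to the nearest other relative to the range of the group exceeded Dixon's 95% critical value. Of the 38 groups examined (10 members, Erbb3, Pbsn and 7 tissue scores in each genotype), 8 had such a library, and chance gives about 1 in 20. Egf was highest in penk-/- replicate 3 (0.916, the gap as a share of the range) and in penk+/+ replicate 4 (0.879). Pbsn was highest in the same 2 libraries (0.928 and 0.879). The urothelium score was highest in penk-/- replicate 3 (0.922), from Upk1b rather than Upk1a. Erbb2 was lowest in penk-/- replicate 3 (0.846) and highest in penk+/+ replicate 1 (0.862), which had the lowest and the highest epithelium score of their groups. The fibroblast score was lowest in penk-/- replicate 1 (0.897).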

How the results depend on the processing

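The counts of genes and the fold changes of the members and of the 7 pathway genes with an unadjusted p below 0.05 were recomputed under 23 alternatives, and Egf with Pbsn under 5, of which the 1 without the libraries farthest from the median of Pbsn is not used, since it kept both libraries of the high cluster. The number of genes at an adjusted p below 0.05, 0 in the limma test, was 1 with quantile normalization, 1 with the replicate block, 1 with the epithelium score and 1 with the smooth muscle score as covariate, 5 with edgeR, 6 with voom and 360 with DESeq2 on the reads of 7 libraries, and 0 to 6 when each library was left out in turn (6 without penk-/- replicate 1). At an unadjusted p below 0.05 it was 1842, 2938 with the replicate block and 1383 to 2222 leaving out a library. Libraries of the same number did not deviate together (r of 0.15, -0.04, -0.32 and -0.16), and the numbers were not read as pairs. Whether libraries of the same number shared a batch is not given in the sources used here, and these r values cannot decide it. Areg, Erbb2, Erbb3 and Rhbdf1 kept direction and an unadjusted p below 0.05 under all 23, Nrg1 under 22 and Ereg under 16. The other pathway genes did so less often: Cblc under 19, Errfi1 under 17, Rhbdl2 under 16, Hras under 14 and Dusp4 under 7. Egf changed sign with edgeR (0.26), DESeq2 (0.24) and voom (0.59), and ranged from -1.06 to 0.79 without single libraries. Tgfa changed sign with quantile normalization (-0.0087), edgeR (-0.030), DESeq2 (-0.039) and voom (-0.038), and ranged from -0.040 to 0.095 without single libraries, Hbegf from -0.013 to 0.33, Egfr from -0.079 to 0.026 and Btc from -0.27 to -0.082. The cause of the changes of sign was not tested. The count tests lacked penk-/- replicate 1, without which limma gave 0.47 for Egf and -0.040 for Tgfa. The difference in Egf normalized counts, -129.7, was -42.0 less the Pbsn slope. It was 5.53 when penk-/- replicate 3 was also left out and penk+/+ replicate 4, for which the slope was extended further, was kept. Egf with Pbsn (r = 0.92) had r of 0.91 to 0.996 with Tgm4, other pseudocounts or normalized counts over the same 6 libraries. Lrig3 passed an unadjusted p of 0.05 without penk-/- replicate 2, and Btc without penk+/+ replicate 4 or without the 2 libraries with the most Pbsn.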
